A study of Mus musculus with 31 samples.

Results

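The comparison described here set T helper 17 (Th17) cells from the central nervous system (CNS) of mice whose T cell donors were conditional knockouts (cKO) for the glucocorticoid receptor, GR, against cells from GR wild-type (WT) donors. It held 9 of the 31 libraries of the series, chosen by their labels: 5 GR WT and 4 GR cKO. Both groups were labelled C57/B6. Naive T cells of both groups carried the 2D2 transgenic receptor, which recognises a myelin protein, and were first turned into Th17 cells of the homeostatic kind (labelled Th17Hom) in culture. They were then given to Rag1 KO recipients, a host without mature T and B cells of its own, where they caused experimental autoimmune encephalomyelitis (EAE). At the height of disease 2000 cells that carried 2D2 were sorted from brain and spinal cord for each library. The promoter that drives Cre and the exons it removes are not given in the sources used here, and the labels do not say whether each library came from its own recipient, so p-values measure the spread between these libraries, which may be technical.

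Nr3c1 encodes the glucocorticoid receptor, a transcription factor. Without hormone it waits in the cytoplasm with heat shock proteins and immunophilins; with hormone it enters the nucleus, where it binds palindromic response elements and switches on genes such as Tsc22d3, Fkbp5, Per1 and Sgk1, and it also lowers transcription driven by NF-kB and AP-1. In T cells it is known for restraining inflammatory cytokines, for sustaining the IL-7 receptor and for killing immature thymocytes.

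The response element is shown here because the direct targets are the genes in which a missing receptor could be read. The canonical palindrome was searched as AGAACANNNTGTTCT and a looser form as GNACANNNTGTNC, on both strands, in RefSeq promoters of GRCm38.p6 that run from 250 bases before to 50 bases after each gene start. The canonical form lay in 3 of 32851 promoters (0.00913%) and the looser form, which contains the canonical one, in 156 (0.475%). Of 24 glucocorticoid-induced genes, 20 matched the table by symbol, with 33 promoters, of which 5 (15.2%) held the looser form, in Sgk1, Txnip, Map3k6 and Fam107a. The promoters of Sgk1 (chr10:21993640-21993939, plus strand), a kinase of ion transport, and of Txnip (chr3:96557707-96558006, plus strand), which restrains thioredoxin and glucose uptake, follow with the match in capitals.
Sgk1: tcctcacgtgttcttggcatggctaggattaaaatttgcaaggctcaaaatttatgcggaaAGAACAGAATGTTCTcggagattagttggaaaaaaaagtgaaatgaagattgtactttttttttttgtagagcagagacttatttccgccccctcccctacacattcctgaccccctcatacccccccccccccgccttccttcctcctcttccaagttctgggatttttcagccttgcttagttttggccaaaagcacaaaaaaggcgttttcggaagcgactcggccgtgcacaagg
Txnip: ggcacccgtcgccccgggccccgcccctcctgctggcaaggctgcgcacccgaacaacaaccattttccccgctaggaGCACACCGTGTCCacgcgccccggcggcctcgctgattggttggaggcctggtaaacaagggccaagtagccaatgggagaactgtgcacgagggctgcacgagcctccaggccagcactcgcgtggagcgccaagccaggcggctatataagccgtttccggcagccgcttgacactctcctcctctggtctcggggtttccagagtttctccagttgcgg
The capitals in Sgk1 match the canonical palindrome, and those in Txnip match the looser form. A match describes these letters and does not show binding.

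Nr3c1 (chromosome 18, 39410545 to 39519421, GRCm38) had lower values in cKO. Its level was 18.8, 14.8, 13, 13.1 and 15.1 CPM (counts relative to the library total, on the usual CPM scale, with totals adjusted by the TMM method) in WT libraries 1 to 5 and 8.45, 6.76, 10.2 and 8.25 CPM in cKO libraries 1 to 4. Every cKO library lay below every WT library, at 8.43 ± 1.42 CPM (SD, n = 4) against 14.9 ± 2.38 CPM (SD, n = 5). The log2 fold change was -0.83 ± 0.18 (SE), and an exact two-sided permutation test over all 126 arrangements of the labels gave p = 0.00794, the smallest it can give. Across all genes the edgeR adjusted p was 0.580, which missed the threshold of 0.05. Counts are summed over all exons of a gene, so transcripts that lack the targeted exons cannot be told apart from intact ones, and the part of Nr3c1 counts that came from cells other than T cells was not tested. Cyp11a1 (chromosome 9, 58006411 to 58027023), the first enzyme of steroid synthesis and the other gene targeted in the series, had 0 counts in all 5 WT and 3 cKO libraries and 2.14 CPM in cKO 2.

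The libraries held 3552871 to 5623305 counts over 15233 to 16936 genes with a count, and 0 counts of a gene in a library left room for a level of at most 0.495 to 1.05 CPM (3 counts of the scaled total, counting error only). Trbv16, the V beta 11 segment of the 2D2 receptor, made up 99.4% to 99.6% of all Trbv counts, and segments of the Trav9 family, its alpha chain, 88.7% to 93.3% of Trav counts. A group of 14 predicted genes took 16.3% to 55.7% of the counts. The cells thus carried the labelled receptor, but the libraries were not of T cell RNA alone. The summed level of 17 T cell identity genes was 16431 to 21934 CPM, and that of 21 macrophage and myeloid genes was 21755, 11555, 6630, 7981 and 25347 CPM in WT 1 to 5 and 19385, 13035, 25283 and 24539 CPM in cKO 1 to 4. In the Cyp11a1 libraries of the series, scaled separately, the same sums were 34718 to 40476 CPM and 905 to 1768 CPM.

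Myeloid RNA split the libraries in a way that crossed the genotypes: WT 1, WT 5, cKO 1, cKO 3 and cKO 4 had sums above 15000 CPM, and WT 2, WT 3, WT 4 and cKO 2 lay below. All 21 myeloid genes and all 10 microglia genes were detected well enough to be tested. Apoe, the lipid carrier of microglia and macrophages, led the sum with 9462, 2872, 494, 725 and 11352 CPM in WT and 8769.7, 3693, 12260.3 and 11759 CPM in cKO. WT 3 and WT 4 stood lowest for Apoe, and the groups overlapped widely (log2 fold change 0.87 ± 0.81). The microglia sum ran from 1212 to 3138 CPM and the monocyte sum from 401 to 857 CPM. Neutrophil genes summed to 23.2 to 70.8 CPM, with Camp and Elane at 0 in every library; B and plasma cell genes summed to 42.4 to 87.3 CPM, with Jchain at 0 in every library. Erythroid genes summed to 0, 2.03, 279, 123 and 243 CPM in WT and at most 8.50 CPM in cKO. In bulk libraries such as these, fewer cells of a type and less RNA per cell cannot be told apart.

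**Figure D1:**
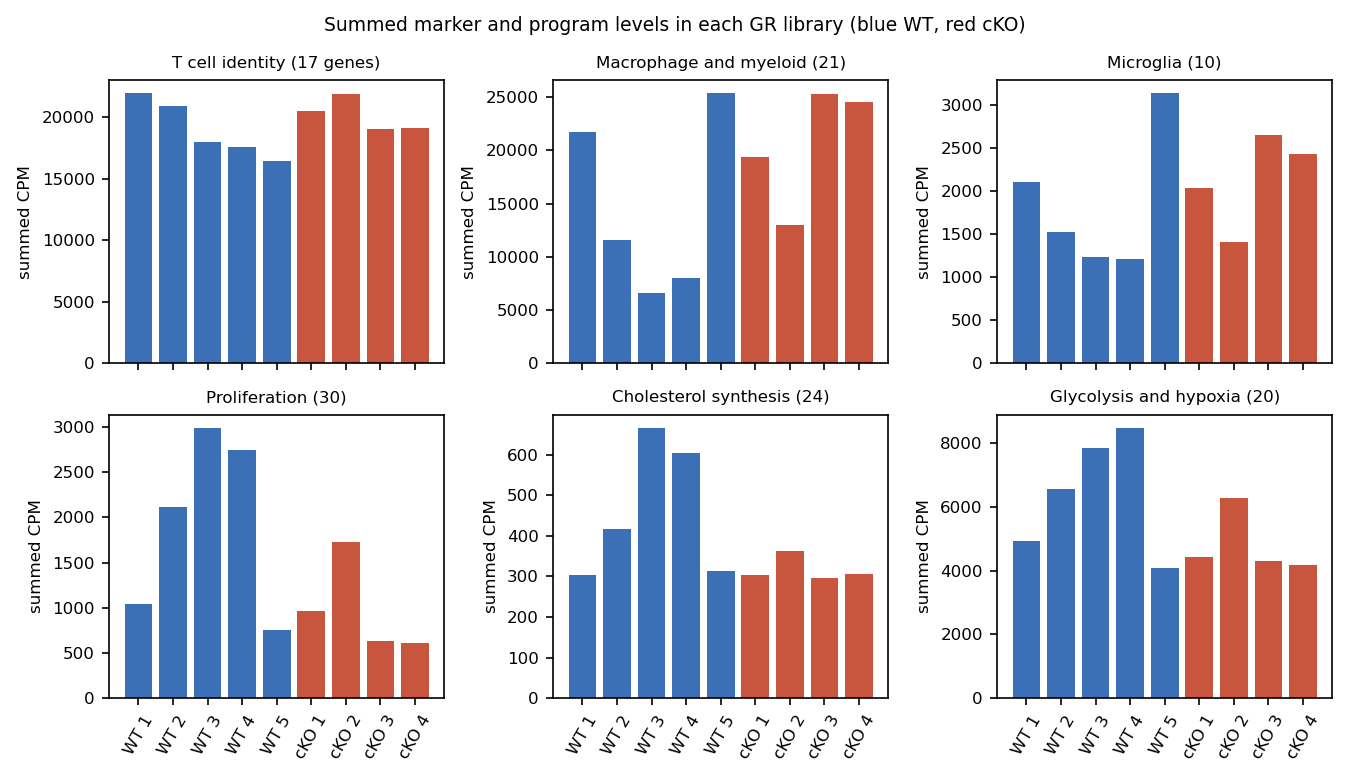
Summed CPM (vertical axes, from 0) of 3 marker lists and 3 program lists in each GR library (horizontal axes; blue WT, red cKO); bars are single libraries. WT 3 and WT 4 have the lowest myeloid sums, 6630 and 7981 CPM, and the highest proliferation sums, 2985 and 2747 CPM.

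The comparison asked which genes depend on GR in Th17 cells of the inflamed CNS. In edgeR, 0 of 10597 genes tested (0%) passed an adjusted p of 0.05. The smallest adjusted p was 0.455, for Chil3. At an unadjusted p under 0.05 there were 870 genes (8.21%), 368 with higher values in cKO (3.47%) and 502 with lower values (4.74%). DESeq2 called 3 genes (Chil3, Il4i1 and Hist1h2bm) and limma voom 0. Groups did not overlap in 147 genes with every cKO library above every WT library (1.39% of those tested) and in 91 with every cKO library below (0.859%). The median log2 fold change over all genes was 0.00, with 5278 genes above 0 and 5319 below. Each gene described from here on therefore has an edgeR adjusted p above 0.05, and differences are given as levels.

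Named by the smallest p among genes with higher values in cKO were Chil3, Tnf, Cxcr3, Phf21a, Dgka, Ripor2, Cdk11b, Hsd3b7, Mkrn1, L1cam, Cd300lf and Mfsd11. Chil3 (Ym1, chromosome 3, 106147554 to 106167564), a chitinase-like protein made by monocytes and alternatively activated macrophages, was at 44.0, 77.8, 25.0, 54.5 and 87.3 CPM in WT 1 to 5 and at 184, 170, 357 and 318 CPM in cKO 1 to 4. All 4 cKO libraries lay above all 5 WT libraries. Genes named for a small p tend to have groups that do not overlap. For the genes named by p here and below, the lack of overlap is therefore no further support. The log2 fold change was 2.17 ± 0.35 (edgeR adjusted p = 0.455), and DESeq2 gave an adjusted p of 4.44e-06. Chil3 was one of 10 monocyte markers, a list chosen with earlier results of these data known. The other members did not share the size of its difference. Of the 9 tested, 6 were above 0 and 3 below, with a median of 0.08. Ly6c2 and Plac8, markers of classical monocytes, were at -0.56 ± 0.37 and -0.88 ± 0.49. Their high values sat in WT 3 and WT 4 (193 and 239 CPM for Ly6c2, 201 and 251 CPM for Plac8), followed by cKO 2 (138 and 126 CPM). F13a1, Thbs1 and Fn1 went the other way, at 0.64 ± 0.31, 0.45 ± 0.22 and 0.29 ± 0.28.

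Tnf (chromosome 17, 35199381 to 35202007), the inflammatory cytokine, was at 98.6, 123, 99.4, 96.2 and 92.5 CPM in WT and at 130, 137, 164 and 182 CPM in cKO. Its groups did not overlap (log2 fold change 0.59 ± 0.13, edgeR adjusted p = 0.580). Cxcr3 (chromosome X, 101731535 to 101734269), the receptor for interferon-induced chemokines, was at 25.9, 27.2, 28.8, 24.3 and 24.5 CPM in WT and at 36.0, 33.3, 50 and 43.9 CPM in cKO. The WT libraries lay close together, and each cKO library stood above them (0.64 ± 0.14, edgeR adjusted p = 0.580). Phf21a, a reader of unmethylated histone H3 in a corepressor complex, was at 27.5 ± 2.02 CPM in WT and 37.7 ± 2.07 CPM in cKO. Dgka, the diacylglycerol kinase that dampens T cell receptor signalling, was at 78.0 ± 6.56 CPM in WT and 104 ± 10.2 CPM in cKO. Ripor2, an inhibitor of RhoA, Cdk11b, a kinase of splicing and mitosis, Hsd3b7, an enzyme of bile acid synthesis, and Mkrn1, a ubiquitin ligase, also had every cKO library above every WT library, with log2 fold changes between 0.38 and 0.61. L1cam, an adhesion molecule, Cd300lf, an inhibitory receptor of myeloid cells, and Mfsd11 overlapped between the groups, at 0.66 to 0.72.

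Named likewise among genes with lower values in cKO were Socs2, Lrmp, Rhoh, Cdk6, G3bp2, Ppih, Babam1, Eif2s3x, Ddx1, Prelid2, Prmt1 and Yars. Socs2 (chromosome 10, 95385362 to 95417180), a feedback inhibitor of cytokine receptors, was at 57.1, 65.5, 61.6, 57.1 and 62.0 CPM in WT and at 41.6, 49.0, 37.3 and 42.9 CPM in cKO. Rhoh (chromosome 5, 65861213 to 65896700), a GTPase of blood cells needed for signalling from the T cell receptor, was at 72.8, 59.0, 54.9, 50.9 and 74.0 CPM in WT and at 40.7, 45.4, 41.7 and 39.9 CPM in cKO. Neither gene overlapped between the groups, and the log2 fold changes were -0.50 ± 0.11 and -0.57 ± 0.14 (edgeR adjusted p = 0.580 each). Cdk6, the cyclin-dependent kinase of G1, was at 42.1 ± 5.10 CPM in WT and 30.8 ± 2.41 CPM in cKO. G3bp2, a stress granule protein, was at 58.1 ± 4.19 CPM in WT and 44.8 ± 1.84 CPM in cKO. Lrmp, a lymphoid membrane protein, Ppih, a cyclophilin of the spliceosome, Babam1, part of a deubiquitinating complex of DNA repair, Eif2s3x, a translation initiation subunit, Ddx1, an RNA helicase, Prelid2 and Prmt1, an arginine methyltransferase, likewise had every cKO library below every WT library, at -0.98 to -0.46. The margin of Prelid2 was narrow, with a highest cKO value of 22.41 CPM and a lowest WT value of 22.44 CPM. Yars, the tyrosyl-tRNA synthetase, overlapped, at -0.49 ± 0.14. In the 5 libraries of high myeloid sum Chil3, Tnf, Cxcr3, Socs2 and Rhoh differed between the groups by 2.16, 0.73, 0.78, -0.55 and -0.85, and in the other 4, where cKO was 1 library, by 1.71, 0.38, 0.33, -0.31 and -0.26. Both sets were formed after seeing the data, and since these groups do not overlap, the direction in each set was fixed by the choice of genes.

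**Figure D2:**
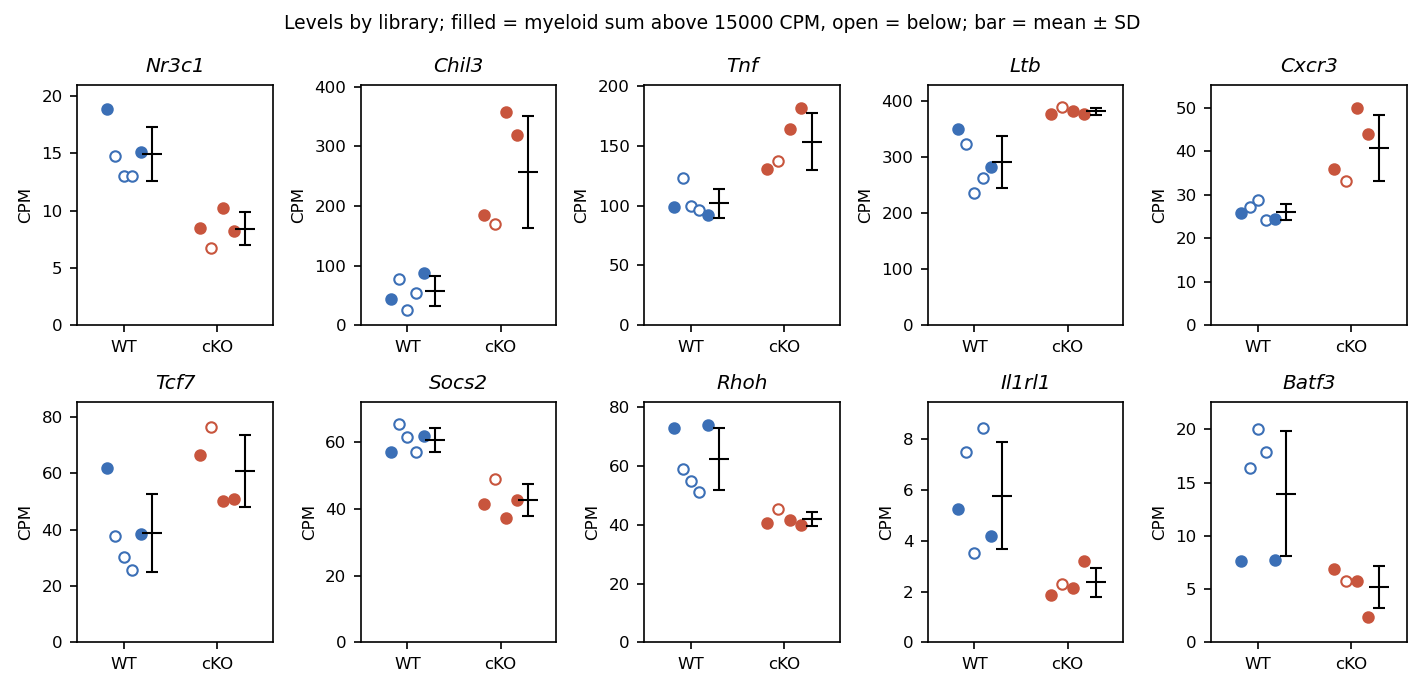
CPM (vertical axes, from 0) of 10 genes in the 5 WT and 4 cKO libraries; filled points are libraries with a myeloid sum above 15000 CPM, open points those below, and the black bars are means ± SD. Nr3c1, Socs2, Rhoh, Il1rl1 and Batf3 have every cKO point below every WT point, and Chil3, Tnf, Ltb and Cxcr3 every cKO point above.

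Genes that glucocorticoids induce did not move as a group in these libraries, which held both T cell and myeloid RNA. Of 18 tested, 9 were above 0 and 9 below, with a median log2 fold change of 0.04. Ddit4, an inhibitor of mTORC1, was the 1 gene with every cKO library below every WT library (0.859% over all genes tested). Ddit4 was at 14.7, 32.8, 16.9, 16.4 and 20.7 CPM in WT and at 12.8, 13.9, 10.8 and 9.05 CPM in cKO (-0.79 ± 0.25, edgeR adjusted p = 0.580). Sgk1, whose promoter holds the canonical palindrome shown above, was at 92.1, 72.1, 29.3, 41.5 and 118 CPM in WT and at 105, 85.1, 132 and 121 CPM in cKO. Its cKO libraries lay within or above the WT range (0.66 ± 0.34, edgeR adjusted p = 0.580), and WT 3 and WT 4 were lowest. Txnip was at 50.4, 50.7, 36.9, 44.0 and 73.6 CPM in WT and at 49.5, 38.8, 55.4 and 49.2 CPM in cKO (-0.08 ± 0.19). Tsc22d3 (GILZ), the classical anti-inflammatory target, was at 42.2, 85.3, 41.9, 45.8 and 122 CPM in WT and at 76.1, 43.9, 62.2 and 61.8 CPM in cKO. The WT libraries alone spanned the whole cKO range of Tsc22d3 (-0.14 ± 0.33, edgeR adjusted p = 0.904). Fkbp5, the immunophilin that feeds back on GR, was at 11.2 ± 5.28 CPM in WT and 11.1 ± 1.11 CPM in cKO. Per1, a clock gene, and Dusp1, a MAP kinase phosphatase, had higher means in cKO, 44.9 ± 10.4 against 30.7 ± 9.40 CPM and 537 ± 91.4 against 377 ± 209 CPM. The sum of the list was 1292, 1308, 982, 971 and 2028 CPM in WT and 1667, 1279, 1735 and 1722 CPM in cKO. WT 3 and WT 4, which had the lowest myeloid sums, were lowest here too. With the myeloid sum as a covariate the list median was -0.02. The part of these levels that came from myeloid cells was not tested.

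Of 15 genes of the receptor machinery tested, 12 were below 0 and 3 above, with a median of -0.19, and Nr3c1 had the largest negative value. The chaperones Hsp90aa1 and Hsp90ab1 were at -0.63 ± 0.26 and -0.40 ± 0.17. Hsp90aa1 stood at 120, 98.7, 229, 220 and 126 CPM in WT and 92.4, 127, 86.5 and 103 CPM in cKO, so that WT 3 and WT 4 held the high values and the remaining WT libraries overlapped with cKO. In a fit with the summed myeloid level as covariate the median of this list was -0.04.

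Dexamethasone, a synthetic glucocorticoid, gave a list made on other libraries of the series. In Th17 cells of the inflammatory kind cultured for 2 days, with 3 libraries each with and without the drug, 189 of 10332 genes (1.83%) passed in edgeR, of which 27 were at least 2-fold higher (0.261%) and 17 at least 2-fold lower (0.165%) with Dex. Of the 27, 18 were tested in the CNS comparison, where 7 were above 0 and 11 below, with a median of -0.09, and of the 17, 8 were tested, where 4 were above and 4 below, with a median of -0.04. The second median rests on few genes: it was -0.34 without control library 1 of the culture, -0.57 without Dex library 2, 0.10 without WT 2 and -0.63 with no filter on low counts. Plaur, the urokinase receptor, had the largest Dex effect among those tested, 31.3 ± 2.52 against 3.02 ± 0.966 CPM in culture, but in the CNS was at 16.5, 13.8, 13.2, 19.2 and 18.9 CPM in WT and at 14.7, 18.1, 18.9 and 25.6 CPM in cKO. The ranges of Plaur overlapped (0.26 ± 0.18, edgeR adjusted p = 0.643). Icos, the costimulatory receptor, Isg20, an RNA exonuclease, Ccr6, a chemokine receptor of Th17 cells, and Gng2, a G protein subunit, all higher with Dex in culture, were at 0.18, -0.10, -0.21 and -0.20 in the CNS. Nr4a3 and Egr2, transcription factors induced by the T cell receptor, Ttc39c, Hivep3 and Rgs16, a regulator of G protein signals, all lower with Dex, were at 0.20, 0.09, 0.17, 0.16 and -0.17. Neb, chosen after its values were seen, followed the opposite course of the drug: 29.1 CPM with Dex against 4.63 CPM without in culture, and 7.79, 9.93, 7.42, 7.16 and 13.7 CPM in WT against 5.01, 5.77, 3.67 and 3.46 CPM in cKO. Neb was the only gene of the 18 with every cKO library below every WT library (-1.0 ± 0.25, edgeR adjusted p = 0.580), against 0.859% over all genes tested. Ramp3, also singled out after seeing the values and higher with Dex in culture, was at -0.68 ± 0.23 in the CNS, again opposite to the drug. Il2, Pdcd1lg2 and Crabp2, singled out likewise, were lower with Dex in culture. In the CNS they went the same way as with the drug, at -1.91 ± 0.79, -0.97 ± 0.31 and -2.10 ± 1.11.

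**Figure D3:**
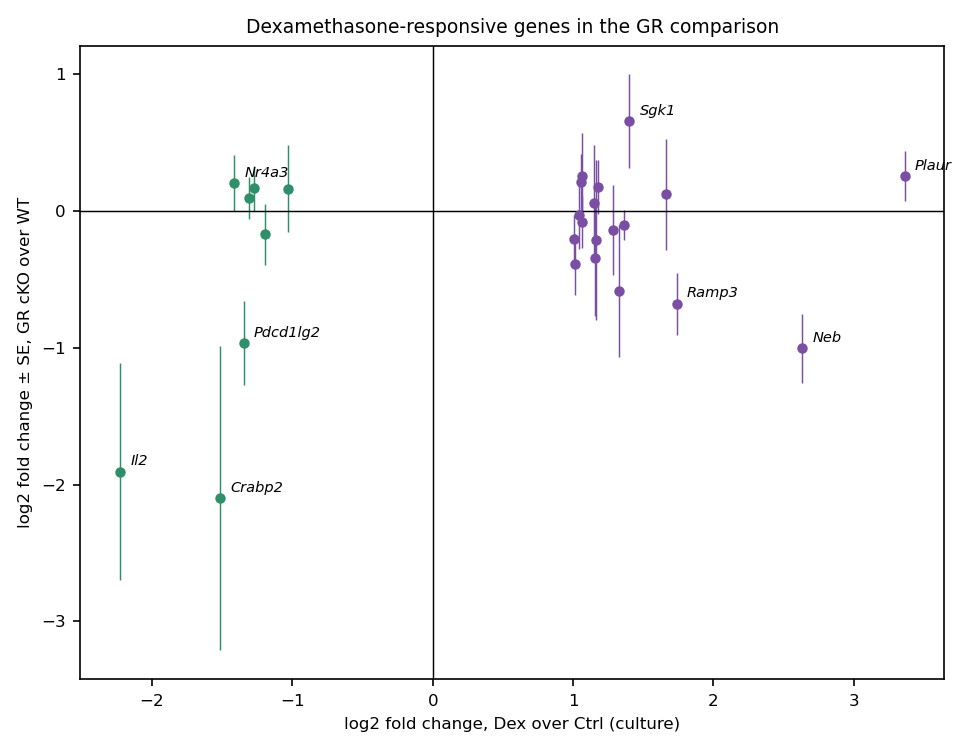
Log2 fold change with Dex over control in culture (horizontal axis) against log2 fold change ± SE of GR cKO over WT in the CNS (vertical axis) for the 26 genes of the Dex lists that were tested in both; purple is higher and green lower with Dex. Genes induced by Dex lie on both sides of 0 in the CNS, 7 above and 11 below, with Neb lowest at -1.0.

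Th17 genes were detected in both groups and did not separate them. Of 15 tested, 9 were above 0 and 6 below, with a median of 0.13. Il17a was low everywhere, at 10.4 ± 5.37 CPM in WT and 11.1 ± 3.54 CPM in cKO. Il6ra, a receptor chain for the Th17-inducing cytokine IL-6, was at 10.1 ± 3.15 and 14.5 ± 2.36 CPM (0.52 ± 0.23).

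Genes of the inflammatory effector list, which holds cytokines but also genes such as the receptor Cxcr3, went both ways. Of 13 tested, 7 were above 0 and 6 below. Tnf, Cxcr3 and Ltb, 3 of the 13, had every cKO library above every WT library, against 1.39% over all genes tested. Tnf and Cxcr3 were already named above for their small p. Ltb, the membrane partner of lymphotoxin, was at 350, 322, 235, 262 and 283 CPM in WT and at 377, 389, 382 and 376 CPM in cKO. The 4 cKO libraries of Ltb lay close together (381 ± 6.16 CPM) and above a wider WT range (0.39 ± 0.12, edgeR adjusted p = 0.580). Lta, lymphotoxin alpha, ran the other way, at 31.3, 51.5, 103, 94.4 and 18.6 CPM in WT and 26.9, 41.7, 23.6 and 25.3 CPM in cKO. Ifng, the Th1 cytokine, was at 10.3, 23.7, 67.1, 72.2 and 21.7 CPM in WT and at 10, 28.4, 22.2 and 16.2 CPM in cKO. The high values of both genes sat in WT 3 and WT 4. Without those libraries the log2 fold change of Ifng went from -1.0 to 0.09. The Th1 list of 12 genes split evenly, 6 above and 6 below, with Nkg7, a granule protein of killer cells, at -0.59 ± 0.23.

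Among 14 genes of homeostatic and stem-like T cells, 9 were above 0 and 5 below. Tcf7 (TCF-1), the transcription factor of self-renewing T cells, was at 61.8, 37.7, 30.2, 25.6 and 38.6 CPM in WT and at 66.4, 76.5, 50 and 50.8 CPM in cKO. WT 1 alone reached the cKO range (0.65 ± 0.24, edgeR adjusted p = 0.580). Ccr7, which guides T cells to lymph nodes, was at 32.1, 50.7, 65.7, 82.4 and 31.9 CPM in WT and at 23.2, 49.5, 14.1 and 13 CPM in cKO. Both groups had their higher Ccr7 values in libraries of low myeloid sum (-1.06 ± 0.42). Of 17 genes of chemokine receptors and migration, 6 were above 0 and 11 below, and Cxcr6, a receptor of tissue-resident effector T cells, was at 346, 245, 211, 209 and 226 CPM in WT and at 327, 321, 377 and 397 CPM in cKO (0.52 ± 0.16).

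Genes of regulatory T cells and IL-10 had a median of -0.08, with 5 of 13 above 0 and 8 below. Il1rl1 (ST2), the IL-33 receptor, was at 5.25, 7.50, 3.52, 8.44 and 4.21 CPM in WT and at 1.88, 2.31, 2.12 and 3.19 CPM in cKO. It was the only member without overlap (-1.28 ± 0.31, edgeR adjusted p = 0.580), where 0.859% of all genes tested had every cKO library below. The costimulatory receptors Tnfrsf4 (OX40) and Tnfrsf18 (GITR) were at -0.73 ± 0.24 and -0.49 ± 0.20, and Il2ra, the IL-2 receptor alpha chain, at -0.53 ± 0.21. Foxp3, the lineage factor, was at 26.0 ± 17.7 CPM in WT and 28.8 ± 7.38 CPM in cKO. Of 10 inhibitory receptors, 5 were above 0 and 5 below. Pdcd1 (PD-1) was at 84.3, 109, 71.2, 69.3 and 36.1 CPM in WT and at 52.9, 56.9, 47.5 and 35.1 CPM in cKO, and Btla was at 9.77 ± 1.86 and 6.10 ± 1.72 CPM.

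Cell cycle genes, cholesterol genes and glycolysis genes lay mostly below 0, and their sums were highest in libraries of low myeloid sum. All 30 proliferation genes were below 0, with a median of -1.16. None of the 30 had groups that did not overlap (over all genes tested, 0.859% had every cKO library below). Their summed level was 1038, 2119, 2985, 2747 and 751 CPM in WT and 961, 1727, 636 and 606 CPM in cKO. The highest sums were those of the 4 libraries of low myeloid sum, cKO 2 among them. Gins2, of the replicative helicase, had -1.49 ± 0.45, Mcm5, of the same helicase, -1.24 ± 0.51, and Mki67, the marker of cycling cells, -1.01 ± 0.47. In the 5 libraries of high myeloid sum alone the proliferation median was -0.34, and with the myeloid sum as a covariate -0.19. It was -0.47 without WT 3 and WT 4, and -0.67 in the 4 libraries of low myeloid sum, where cKO was 1 library.

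All 22 genes of cholesterol synthesis and uptake tested were below 0, with a median of -0.50. Idi1, an enzyme of the mevalonate pathway, was at -1.48 ± 0.48. The cholesterol sum was 304, 417, 665, 604 and 312 CPM in WT and 304, 362, 296 and 305 CPM in cKO, so WT 3 and WT 4 stood apart and WT 1 and WT 5 were at the cKO level. Without WT 3 and WT 4 the median was -0.15, and within the libraries of high myeloid sum -0.02. Within those of low myeloid sum, where cKO was 1 library, it was -0.62. Glycolysis and hypoxia genes had 17 of 19 below 0 and a median of -0.35, with Ldha, lactate dehydrogenase, at 972 ± 364 CPM in WT and 654 ± 177 CPM in cKO. Bnip3, a mitophagy receptor induced by hypoxia, was the one member with every cKO library above every WT library (1.39% over all genes tested). It was at 8.34, 8.92, 8.90, 9.21 and 7.36 CPM in WT and at 9.39, 12.9, 12.4 and 11.4 CPM in cKO. With the myeloid sum as a covariate the glycolysis median was -0.02. It was -0.08 in the libraries of high myeloid sum and -0.22 in those of low myeloid sum. The part that myeloid RNA had in these lists beyond these values was not tested.

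**Figure D4:**
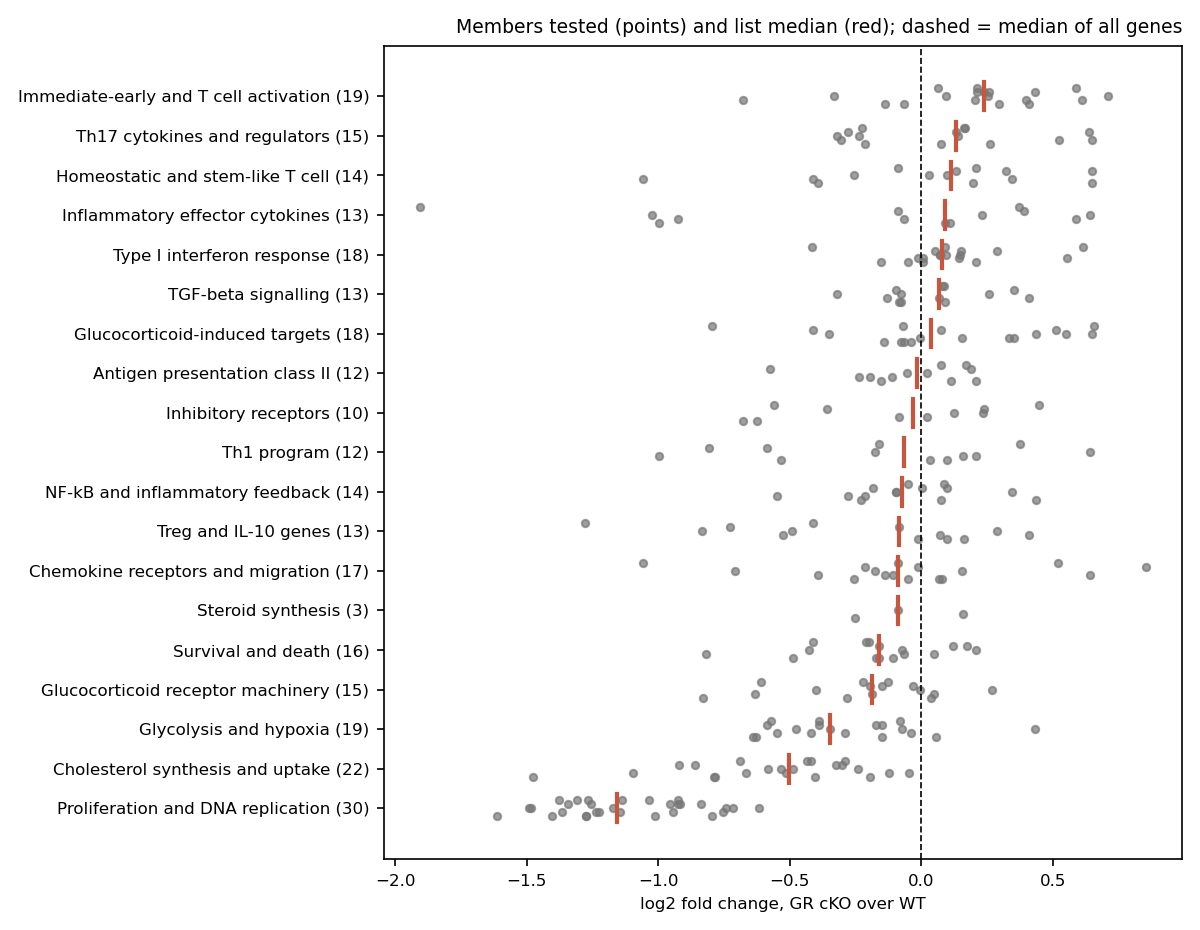
Log2 fold change of GR cKO over WT (horizontal axis) for the tested members (grey points) of 19 program lists (rows, number tested in brackets); red lines are list medians and the dashed line is the median of all 10597 genes. Proliferation (-1.16), cholesterol (-0.50) and glycolysis (-0.35) have the lowest medians, and no member of any list passed the threshold.

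Most dendritic cell markers tested had lower values in cKO, with 6 of 7 below 0 and a median of -1.34. Values for macrophage genes were mostly above 0 (19 of 21, median 0.37). With the myeloid sum as a covariate the dendritic cell median was -0.87. Batf3, a transcription factor of dendritic cells that activated T cells also express, was at 7.61, 16.4, 20.0, 17.9 and 7.71 CPM in WT and at 6.89, 5.77, 5.80 and 2.40 CPM in cKO. All cKO libraries lay below all WT libraries for Batf3 (-1.42 ± 0.37, edgeR adjusted p = 0.580). Cd209a, a lectin of monocyte-derived dendritic cells, was at 23.4, 3.65, 39.3, 34.0 and 16.1 CPM in WT and at 14.1, 1.15, 2.90 and 0.532 CPM in cKO (-2.48 ± 0.82). The chemokine Ccl22 was at 14.7 ± 4.12 CPM in WT and 5.65 ± 3.36 CPM in cKO, and Flt3, the growth factor receptor of dendritic cells, at 2.43 ± 0.900 and 0.827 ± 0.525 CPM. Batf3 was the 1 member of the 7 tested with every cKO library below every WT library (0.859% over all genes tested). Cd209a, Ccl22 and Flt3 overlapped between the groups, as did Clec9a at -1.10 ± 0.58, Zbtb46 at -0.50 ± 0.34 and Itgax at 0.04 ± 0.44. Xcr1 was too low to be tested. The dendritic cell sum was 79.4, 48.8, 93.9, 85.5 and 62.0 CPM in WT and 47.6, 29.4, 32.3 and 25.6 CPM in cKO. These sums did not overlap, but by a narrow margin (WT 2 against cKO 1), and the list was chosen with earlier results of these data known. Of the 21 myeloid genes, 2 had every cKO library above every WT library, against 1.39% over all genes tested. These were Cd14, the lipopolysaccharide coreceptor, and Cybb, the phagocyte oxidase, at 0.60 ± 0.19 and 0.72 ± 0.23. Their margins were narrow: the lowest cKO and highest WT values were 66.4 and 66.3 CPM for Cd14 and 54.1 and 54.0 CPM for Cybb.

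Among the smaller marker lists, 3 of 3 neural and glial genes tested were above 0 (median 0.79) and 3 of 3 neutrophil genes (0.47), while 4 of 4 NK and CD8 T cell genes were below (-0.71). Immediate-early and activation genes were mostly above 0 (15 of 19, median 0.24), with Fosl2, an AP-1 subunit, at 16.4 to 33.7 CPM in WT and 25.7 to 43.9 CPM in cKO (0.71 ± 0.24). Type I interferon genes had 14 of 18 above 0 and a median of 0.08, with Ifit1, an antiviral RNA-binding protein, at 16.8 ± 4.24 CPM in WT and 24.5 ± 3.29 CPM in cKO. NF-kB genes had 6 of 14 above 0 (median -0.07), TGF-beta genes 7 of 13 (0.07), survival and death genes 4 of 16 (-0.16), class II antigen presentation genes 6 of 12 (-0.02) and steroid synthesis genes 1 of 3 (-0.09).

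The Cyp11a1 cKO comparison is the nearest in the series, made on 4 WT and 6 cKO CNS libraries of the same transfer design, and shares no library with the GR comparison. The difference between both genotype effects passed an adjusted p of 0.05 in edgeR for 2 of 11269 genes (0.0177%), Rab4a and Napsa, which fall below the minimum level for naming and were named because they are the 2 that passed. Rab4a (chromosome 8, 123805985 to 123835287), a GTPase of endosome recycling, was at 9.93 ± 1.91 CPM in GR WT and 11.2 ± 1.34 CPM in GR cKO, and at 13.5 ± 3.85 CPM in Cyp11a1 WT (n = 4) and 2.91 ± 1.14 CPM in Cyp11a1 cKO (n = 6). Napsa (chromosome 7, 44572380 to 44586862), an aspartic protease, was at 24.2 ± 5.50 CPM in GR WT and 18.7 ± 2.84 CPM in GR cKO, and at 3.65 ± 0.825 and 10.2 ± 1.75 CPM in the Cyp11a1 groups. The difference of effects on the log2 scale was 2.38 ± 0.34 for Rab4a and -1.86 ± 0.28 for Napsa (edgeR adjusted p = 0.00884 each), and in both genes the larger effect was that of Cyp11a1. Dgka and Tcf7, which were higher in GR cKO, had effects of -0.32 and -0.59 in the Cyp11a1 comparison, with differences of 0.74 ± 0.14 and 1.24 ± 0.28 (edgeR adjusted p = 0.0728 and 0.212). Of the class II genes H2-Eb1, H2-Aa and H2-DMb1, the GR effects in this joint fit were 0.03, 0.12 and -0.14 and the Cyp11a1 effects 2.13, 1.88 and 1.12 (edgeR adjusted p of the difference 0.0728, 0.212 and 0.212). Myeloid sums were 905 to 1768 CPM in the Cyp11a1 libraries, and the part of this gap in the differences was not tested beyond a fit with the myeloid sum as a covariate, in which Rab4a, Napsa and Dgka passed.

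**Figure D5:**
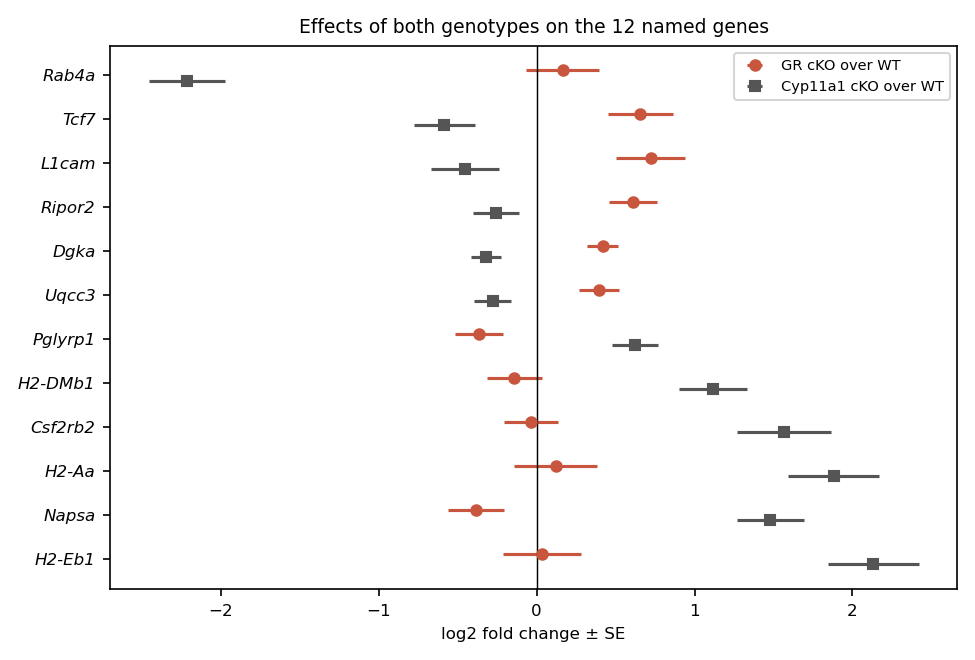
Log2 fold change ± SE of GR cKO over WT (red circles) and Cyp11a1 cKO over WT (grey squares) from 1 joint fit, for the 12 genes named in the test of their difference. Rab4a and Napsa passed the threshold, with differences of 2.38 and -1.86, and both genotype effects have opposite signs in all genes shown except H2-Eb1 and H2-Aa; the genes were chosen by that difference.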

How the data were processed

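Messenger RNA of sorted cells was sequenced by the submitters with a modified SMART-Seq2 protocol, which keeps no strand information, so reads of overlapping antisense genes cannot be told apart. The deposited values are counts per gene symbol, unnormalised, in 1 table per experiment with 31053 symbols each, and RSEM 1.3.3 and mm10 are the tool and build named in the submitters' processing notes. Whether counts were rounded is not given in the sources used here, and the deposited values are whole numbers. All 31 columns matched a library by its label. Gene positions are from GENCODE M21 on GRCm38 (30532 symbols). Total counts were 3552871 to 5623305 per GR library, and chi-square per degree of freedom between replicates was 5.54 to 142, so no pair agreed within counting error.

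The GR comparison used edgeR 4.0.16 in R 4.3.3, with genes kept by filterByExpr, TMM scaling, robust quasi-likelihood F tests of the 9 GR libraries, and Benjamini-Hochberg adjustment over all genes tested. CPM are scaled by TMM, and fold changes are those of the edgeR fit with its default prior count. The Dex lists came from 1 fit of the 4 culture groups and the difference from Cyp11a1 from 1 fit of 19 libraries. The method was checked on simulated counts. Other tools were DESeq2 1.42.0 and limma 3.58.1 (voom with sample weights), and other settings covered scaling, filters, a term for the replicate number, the myeloid sum as a covariate, removal of predicted genes and each library left out.

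Named genes were Nr3c1, Cyp11a1 and, as fewer than 12 passed in each direction, the 12 per direction of smallest p whose mean log2 CPM reached 4, leaving out predicted genes, clones, receptor segments and pseudogenes; up to 8 per direction from the Dex lists and 5 per direction from the difference were taken likewise. Other genes are members of 30 lists with 420 entries, and some were picked from them for their values. Members and lists were chosen with earlier results of these data known. Same-numbered replicates did not deviate together (correlations 0.00, 0.14, -0.24 and -0.20 over replicates 1 to 4), so they were not paired. Sequences are from RefSeq, and none is printed for Nr3c1.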

Additional observations from a re-analysis of the deposited data

Results flagged for a closer look

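A value is listed here when, within its group, it lay farther from its neighbour than a Dixon 95% limit allows; by chance about 1 group in 20 meets this, and 19 of 228 groups did. In the library cKO 2, the one cKO library of low myeloid sum, the sums of glycolysis genes (6272 CPM), cholesterol genes (362 CPM), glucocorticoid-induced genes (1279 CPM) and neutrophil genes (48.8 CPM) stood apart from the other 3 cKO libraries, as did L1cam (24.7 CPM), Ppih (13.7 CPM), Dusp1 (401 CPM), Crabp2 (2.97 CPM) and Cyp11a1 (2.14 CPM, against 0 in all other GR libraries). In cKO 1, Cd300lf (34.4 CPM) and Ccl22 (0.626 CPM) were far below the other cKO libraries. Among WT libraries, Cxcr6 (346 CPM) and the chemokine receptor sum (1727 CPM) were highest in WT 1, Fkbp5 (20.3 CPM) and Tnf (123 CPM) in WT 2, G3bp2 (65.3 CPM) in WT 3 and the neural and glial sum (46.6 CPM) in WT 5, while Mkrn1 (15.6 CPM) was lowest in WT 4 and Ccl22 (7.36 CPM) in WT 5.

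The effects of the 2 genotypes differed by test for Rab4a (2.38 on the log2 scale, GR minus Cyp11a1) and Napsa (-1.86).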

How the results depend on the processing

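The count of genes past the threshold, 0 in the main comparison, was 0 with RLE or upper quartile scaling, T cell marker scaling, other filters, limma voom, the myeloid covariate or without the predicted genes. It was 2 with total counts only, 3 with DESeq2, 0 to 1 with each library left out (Snhg9 without WT 3), 1 without WT 3 and WT 4, and 2 in the 4 libraries of low myeloid sum. Nr3c1 lay between -0.95 and -0.73 with each library left out. Replicate numbers share only a number: 1 of 4 replicates correlated best with its own number, and with the replicate block 0 genes passed (1416 at an unadjusted p under 0.05, against 870), Nr3c1 was at -0.82, and the difference from Cyp11a1 passed in 0 genes rather than 2. That difference passed in 26 genes with DESeq2 and in 2 to 6 with each library left out (5 without Cyp11a1 WT 2, 4 without Cyp11a1 cKO 3 or GR WT 2, 6 without GR WT 1).

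With the myeloid covariate list medians were as follows: proliferation -0.19, cholesterol -0.12, glycolysis -0.021, dendritic cell -0.87, NK and CD8 T cell -0.19, receptor machinery -0.042, regulatory T cell -0.22, inhibitory receptors -0.19 and monocyte 0.36. In the 5 libraries of high myeloid sum the myeloid median was -0.0089, the dendritic cell median -0.90 and the cholesterol median -0.017. In the other 4 the dendritic cell median was -0.91, the cholesterol median -0.62 and the proliferation median -0.67. Without WT 3 and WT 4 the cholesterol median was -0.15. T cell marker scaling gave -0.18 for regulatory T cell and -0.17 for NF-kB genes. With each library left out the regulatory T cell median ran from -0.27 to 0.023, that of NK and CD8 T cell genes from -0.92 to -0.32 and that of genes lower with Dex from -0.57 to 0.10, and the last was -0.63 with no filter on low counts.

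Some single genes changed sign. With the myeloid covariate Crabp2 was at 0.58, Fkbp5 0.15, Foxp3 -0.27, Hivep3 -0.17, Icos -0.0084, Ifng 0.0044, Il17a -0.091 and Rgs16 0.17. Without WT 3 and WT 4, Foxp3 was at -0.22, Hivep3 -0.23, Icos -0.069, Ifng 0.094, Il17a -0.35 and Rgs16 0.14. In the libraries of high myeloid sum Fkbp5 was at 0.47, Foxp3 -0.44, Hivep3 -0.27, Icos -0.14, Ifng 0.11, Il17a -0.54, Isg20 0.0099 and Rgs16 0.35, and in those of low sum Ccr6 was at 1.32, Nr4a3 -0.51 and Ttc39c -0.10. With voom Ccr6 was at 0.29, Tsc22d3 0.0016 and Txnip 0.015, with the replicate block 0.35, 0.23 and 0.083, and Fkbp5 was at 0.017 with upper quartile scaling and 0.019 with a mean count of at least 50. With each library left out, Ccr6 ran from -0.49 to 0.44, Fkbp5 from -0.15 to 0.34, Foxp3 from -0.0035 to 0.57, Hivep3 from -0.036 to 0.34, Il17a from -0.17 to 0.29, Tsc22d3 from -0.27 to 0.18 and Txnip from -0.18 to 0.083. The fits without WT 3 and WT 4 and by myeloid sum were chosen after seeing the data, and the cause of these changes was not tested. Depth limits statements on genes near the level that a count of 0 allows, such as Cyp11a1.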
